A study of Drosophila melanogaster with 4 samples.

Results

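The 8 homeotic genes of Drosophila, lab, pb, Dfd, Scr, Antp, Ubx, abd-A and Abd-B, were taken from the deposited GRO-seq table by their symbols. They are 8 of its 16612 genes and 8 of its 13939 protein-coding genes. All 4 libraries came from untreated S2 cells, an established line of blood-cell character. Per the labels it derives from embryos aged 20 to 24 h, and no genotype or treatment was contrasted. GRO-seq (2 libraries, here called Sample3 and Sample4 after their columns) captures RNA from polymerases that were engaged on the DNA in isolated nuclei. 5'GRO-seq (2 libraries, replicates 1 and 2) keeps the capped 5' ends of such RNA and so marks where transcription began. The labels do not say whether replicates were separate cultures, so the spread between them may be technical. No test across samples was possible, because each assay is a single group of 2 libraries.

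Homeotic genes encode homeodomain transcription factors that give body segments their identity. They lie in 2 clusters on the same chromosome arm. The Antennapedia complex serves the head and anterior thorax, and the bithorax complex serves the posterior thorax and abdomen. Along the chromosome the genes are ordered as the body parts they specify. Outside their own domains they are held silent by Polycomb group proteins, while trithorax group proteins keep them active inside those domains.

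Depth set what could be seen at such genes. FPKM counts reads per kilobase of genomic span, scaled to the library total. Whole reads recovered from it put the normalising totals at 6572359 reads in Sample3 and 2474842 in Sample4. In a gene of 10 kb a single read was worth 0.0152 FPKM and 0.0404 FPKM, respectively. The 5'GRO-seq libraries held 13979543 and 6710787 reads, from which the authors called 6782 and 9387 start sites. Of the markers, 9 of 10 hemocyte genes had at least 1 FPKM in both GRO-seq libraries, with medians of 47.8 FPKM and 50 FPKM, the exception being NimC1. The blood-cell GATA factor gene srp had 49.2 FPKM and 71.5 FPKM. The 4 fat body and gut markers were listed at 0 in both libraries, as was the muscle troponin gene up. At least 1 FPKM in both libraries was also seen for 2 of 4 neuron, 1 of 4 muscle and 2 of 4 germline markers, the neuronal gene elav among them with 10.059 FPKM and 10.119 FPKM.

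All 8 homeotic genes had very low GRO-seq levels. No level of background reads was measured, so values this low do not by themselves establish that a gene was transcribed. This holds for values of 3 or 4 reads and for those of more reads over a long span. None reached 1 FPKM in either library, a level that 55.0% of protein-coding genes had in both. Among the 1539 protein-coding genes that span 10 to 130 kb, the share at this level was 50.4%. The medians of the 8 genes were 0.085 FPKM in Sample3 and 0.046 FPKM in Sample4, against 3.69 FPKM and 2.63 FPKM over all protein-coding genes. On the log2(FPKM + 1) scale, which understates differences of low genes, the difference of these medians was -1.99, and against genes of 10 to 130 kb it was -1.15. No homeotic gene was listed at 0 in both libraries, as 20.9% of protein-coding genes were, and 6 of the 8 had reads in both. Among protein-coding genes of 10 to 130 kb the share at 0 in both was only 3.05%. The lack of such zeros is therefore not particular to the homeotic genes.

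Levels this low were common among long genes. There were 697 protein-coding genes of 10 to 130 kb that stayed under 1 FPKM in both libraries. Their median of mean FPKM was 0.059, and that of the homeotic genes was also 0.059. These genes were picked for the low level already described for the homeotic genes, which in part fixes the likeness, and Abd-B, at 6.9 kb, is shorter than any of them. Over their summed span of 220.8 kb the 8 genes held 157 reads in Sample3 and 39 in Sample4. This made 0.108 FPKM (95% exact Poisson interval 0.0919 to 0.126) and 0.0714 FPKM (0.0507 to 0.0976). Intervals here cover counting error only. Reads without molecular identifiers are not independent molecules.

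**Figure D1:**
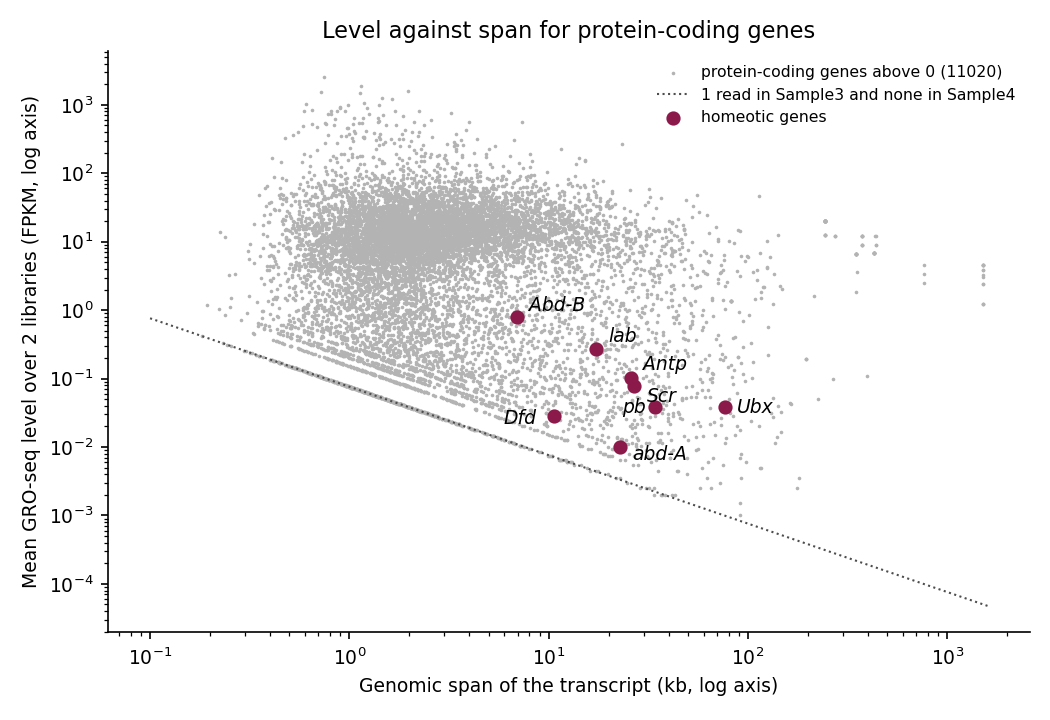
Mean GRO-seq level of 11020 protein-coding genes above 0 (grey points) and of the 8 homeotic genes (red points) against the genomic span of the transcript, both on log axes. The homeotic genes lie between 0.01 FPKM and 0.799 FPKM; the dotted line is the mean given by 1 read in Sample3 and none in Sample4.

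In the Antennapedia complex, lab had the highest level. This gene specifies part of the head and acts in the midgut, and it lies at the end of the complex (dm3 3R, 2487149 to 2504312, minus strand). Its level was 0.337 FPKM in Sample3 (38 reads, interval 0.238 to 0.462) and 0.212 FPKM in Sample4 (9 reads, 0.0969 to 0.402). Both values were above those of every other gene of this complex that is homeotic, although in Sample4 its counting interval overlapped those of the other 4.

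The next gene, pb, which specifies the mouthparts of the proboscis, had 0.031 FPKM in Sample3 and 0.047 FPKM in Sample4 (3R, 2533522 to 2567785, minus strand). These values rest on 7 and 4 reads. It was the only homeotic gene with the higher value in Sample4, and the ratio of Sample4 to Sample3 had an interval of 0.326 to 5.97. Dfd, a gene of the mandibular and maxillary head segments, had 0.057 FPKM in Sample3 and was listed at 0 in Sample4 (3R, 2617558 to 2628150). It is the only homeotic gene on the plus strand. Its Sample3 value came from 4 reads. A count of 0 in Sample4 has a limit of 0.114 FPKM at 3 reads and an interval of 0 to 0.141 FPKM. No difference between the libraries was therefore detectable at this depth.

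Scr, which acts in the labial and first thoracic segments and in the salivary gland, had 0.113 FPKM in Sample3 and 0.045 FPKM in Sample4 (3R, 2648842 to 2675703, minus strand). Antp, best known for mutations that turn antennae into legs, had 0.141 FPKM and 0.063 FPKM (3R, 2732740 to 2758562, minus strand). Scr was covered by 20 and 3 reads and Antp by 24 and 4. The intervals of these neighbours overlapped in both libraries, so their order was not resolved.

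In the bithorax complex, Abd-B had the highest level of all 8 genes. It specifies the posterior abdomen and the genitalia, and its row covers 12753397 to 12760298 on the minus strand of 3R. It had 0.838 FPKM in Sample3 (38 reads, interval 0.593 to 1.15) and 0.761 FPKM in Sample4 (13 reads, 0.405 to 1.30). Its mean was 0.799 ± 0.0544 FPKM (SD, n = 2), 4.16-fold below the median of mean FPKM over protein-coding genes. Of the protein-coding genes, 41.2% had a lower mean than Abd-B. The intervals of Abd-B and lab did not overlap in either library. Abd-B was the only gene whose intervals reached 1 FPKM.

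Ubx, which directs the formation of halteres in place of wings, had 0.046 FPKM in Sample3 and 0.032 FPKM in Sample4 (3R, 12483765 to 12560148, minus strand). Because its span of 76.4 kb is the longest of the 8, these low values rest on 23 and 6 reads, with intervals of 0.029 to 0.0687 and 0.0116 to 0.0691. The anterior abdominal gene abd-A was the lowest, with 0.02 FPKM from 3 reads in Sample3 and a listed 0 in Sample4 (3R, 12632936 to 12655771, minus strand). A count of 0 there has a limit of 0.0531 FPKM at 3 reads and an interval of 0 to 0.0653 FPKM.

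By mean level the order was Abd-B, lab, Antp, Scr, then pb and Ubx at the same mean of 0.039 FPKM, then Dfd and abd-A, which had reads in Sample3 only. The step from Abd-B to lab exceeded counting error in both libraries. In Sample3 these genes had 38 reads each, so their step there comes from the spans of their rows, 6.9 kb and 17.2 kb. The steps from lab to Antp and from Scr to pb exceeded counting error in Sample3 only. No other neighbours in this order differed beyond their intervals. Among the homeotic genes, the highest of each complex lay at one end of it, lab at the low-coordinate end of the Antennapedia complex and Abd-B at the high-coordinate end of the bithorax complex. Of the 8 genes 7 were lower in Sample4, the direction seen in 69.7% of 2764 protein-coding genes that were under 1 FPKM in both libraries and above 0 in at least 1. For each of the 8 genes the counting interval of the ratio between libraries included 1.

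**Figure D2:**
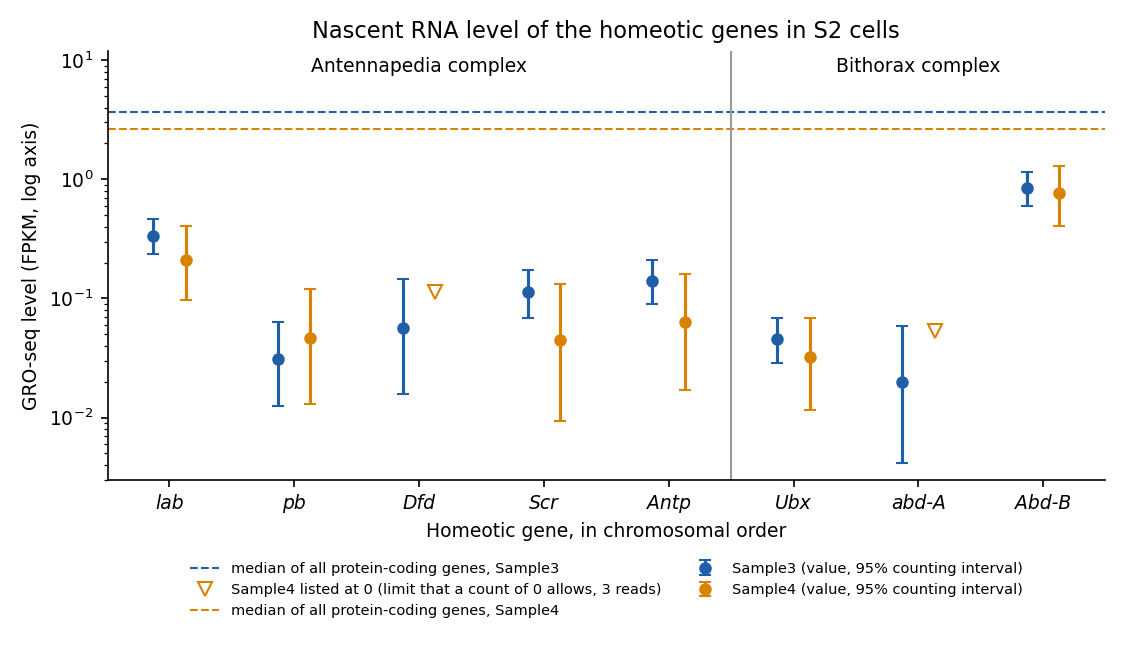
GRO-seq level (FPKM, log axis) of each homeotic gene in chromosomal order, with points for the value in each library and bars for its 95% exact Poisson interval. Open triangles mark the limit of 3 reads for Dfd and abd-A, listed at 0 in Sample4, which is below the upper end of their exact intervals. Dashed lines mark the medians of all protein-coding genes, 3.69 FPKM and 2.63 FPKM, which lie above every interval.

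The table gives a single transcript per gene, which matters most for Abd-B and Antp. All 8 of its accessions were found in a RefSeq table of the later Release 6 assembly. That table lists 12 transcripts of Antp and 10 of Abd-B, against 6 of Ubx and 1 of Dfd. Both genes are known to use several promoters, and the Abd-B row, at 6.9 kb, is the shortest of the 8. Reads that belong only to longer transcripts of these genes are not part of their FPKM. No other row of the table, on either strand, overlapped any of the 8 spans.

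Of the 8 genes, only Ubx had a called start site at its annotated 5' end. The site was called in replicate 1, on the minus strand, over chr3R:12560073-12560223 (dm3), and its centre at 12560148 was exactly the annotated first base. Among the 3972 protein-coding genes with a replicate 1 site within 100 bp, 5.21% had it at that base. Thus 1 of 8 homeotic genes had such a site in replicate 1, where 28.5% of protein-coding genes did, and 0 of 8 in replicate 2, where 17.0% did. Among the 697 genes of 10 to 130 kb under 1 FPKM in both libraries the shares were 14.8% and 7.03%. The count of 1 and the count of 0 are therefore both close to what genes of this kind had. In replicate 2 the nearest site to the Ubx 5' end on its strand was 84.5 kb away. For a call the authors required 20 reads in replicate 1 or 14 in replicate 2, and an excess of 4-fold over both the GRO-seq library and the local region. Unused and weakly used starts are therefore alike in these lists. Genes of high level often lacked a site too. Of those above 10 FPKM, 51.7% had a site within 100 bp in replicate 1 and 33.2% in replicate 2.

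The site of Ubx went with a low level over a long span. Its 23 and 6 reads are near the medians of 26 and 7 reads over all genes of the table, but they are spread over 76.4 kb. Protein-coding genes above 0 whose mean was no higher than that of Ubx numbered 490, and 15 of them (3.06%) had a replicate 1 site within 100 bp of the 5' end. The share rose with level, from 2.63% (95% exact Clopper-Pearson interval 1.54 to 4.17%) of genes above 0 and up to 0.05 FPKM to 51.7% (50.3 to 53.2%) of genes above 10 FPKM. The direction was the same in replicate 2, with 1.24% (0.535 to 2.42%) and 33.2% (31.9 to 34.6%). Among 70 protein-coding genes that span at least 50 kb and had a mean under 0.1 FPKM, 8 (11.4%) had a replicate 1 site, Ubx included. Others, looked up after their values were seen, were bru-3, an RNA-binding protein gene, with 0.031 FPKM and 0.024 FPKM, and sns, a gene of myoblast fusion, with 0.04 FPKM and a listed 0. Reads of the FPKM table cannot be placed within a gene, so whether the 23 reads of Ubx in Sample3 lay near its start was not tested.

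**Figure D3:**
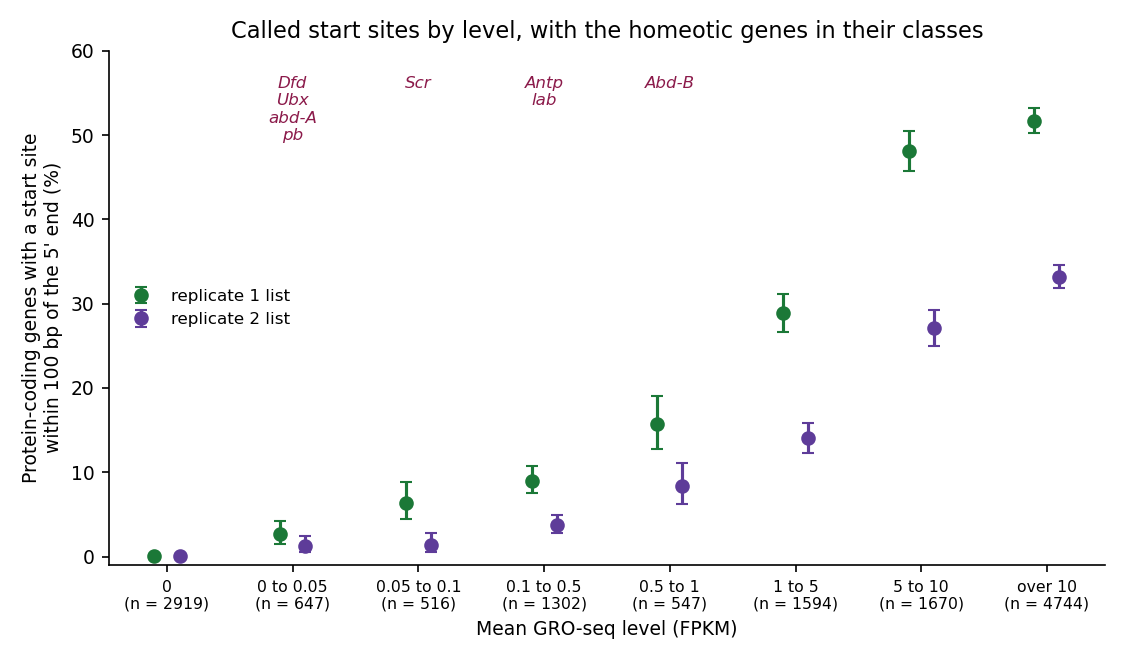
Share of protein-coding genes with a called start site within 100 bp of the annotated 5' end, by class of mean GRO-seq level, for each 5'GRO-seq list, with bars for 95% exact Clopper-Pearson intervals. Names in red place each homeotic gene in its class; Ubx falls in the class up to 0.05 FPKM, where 2.63% of genes had a replicate 1 site and 1.24% a replicate 2 site.

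Abd-B had sites near its row but none within 100 bp of its end. In replicate 2 a minus-strand site lay inside the gene, 583 bp downstream of the annotated 5' end, over chr3R:12759640-12759790. In replicate 1 a minus-strand site lay 9.7 kb upstream of that end, over chr3R:12769916-12770066 and outside the row. The lists thus placed starts in the Abd-B region at different positions. Whether the upstream site belongs to a longer Abd-B transcript was not tested, since dm3 positions of the other transcripts were not used here.

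The remaining 6 genes had no site in either list, at the 5' end or inside, on either strand. The nearest same-strand sites to their 5' ends were 22.3 kb or more away. Inside the 8 genes, more than 100 bp from the 5' end, the only call was the Abd-B site of replicate 2. On the sense strand this made 0 sites in replicate 1, which over 220.8 kb allows up to 1.36 sites per 100 kb, and 0.453 sites per 100 kb in replicate 2. Over all protein-coding genes the densities were 0.47 and 2.99 sites per 100 kb. Over genes of 10 to 130 kb under 1 FPKM they were 0.245 and 0.283. By gene, a sense site inside was present in 1 of 8 homeotic genes in replicate 2, against 14.8% of protein-coding genes, and in 0 of 8 in replicate 1, against 3.29%. Among the genes of 10 to 130 kb under 1 FPKM these shares were 7.32% in replicate 2 and 6.17% in replicate 1. Antisense sites inside were present in 0 of 8 in either list, against 4.86% and 6.42% of protein-coding genes. Of the long genes under 1 FPKM, 7.60% and 9.61% had them. Opposite-strand sites within 100 bp of the 5' end were likewise present in 0 of 8, against 2.35% and 1.17%. With 8 genes, shares of this size could not be told from 0.

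Most other rows of the complexes were listed at 0. Between the outer ends of lab and Antp (271.4 kb) and of Ubx and Abd-B (276.5 kb) the table holds 42 further rows, of which 33 were listed at 0 in both libraries. Among the protein-coding rows this held for 14 of 16, against 20.9% of all protein-coding genes. The 7SL RNA copies in the Antennapedia complex, genes used in every cell, were also listed at 0. Their rows share the same coordinates, unlike the protein-coding rows. Whether a listed 0, there or in other rows, is a count or a failed estimate was not tested. The rows at 0 included zen, zen2, bcd and ftz, homeobox genes of early embryonic patterning that lie in the Antennapedia complex without homeotic function. They also included 7 of 8 cuticle protein genes between lab and pb, the plus-strand noncoding iab-4, and the microRNA rows mir-iab-4 and mir-iab-8. The noncoding iab-8 had a single read in each library over 60847 bp (0.003 FPKM and 0.007 FPKM), and bxd had a single read in Sample3 (0.061 FPKM). Most of these rows are short. A count of 0 in zen allows up to 0.343 FPKM in Sample3 and 0.911 FPKM in Sample4, so a level like that of lab could not be seen there. The limit was below the level of lab for 5 of the 33 rows in Sample3, bcd and ftz among them, and in both libraries for iab-4 alone (0.0729 FPKM and 0.194 FPKM). Pooling the rows at 0 within each complex sets no tighter limit. These rows were selected for having 0 in both libraries, so their pooled count was bound to be 0. Rows with reads, such as iab-8 and bxd, were not part of that pool.

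Ama was the exception. This gene, which encodes a secreted immunoglobulin-domain protein of cell adhesion, had 72.8 FPKM in Sample3 and 95.7 FPKM in Sample4, a mean of 84.2 ± 16.3 FPKM (SD, n = 2). It lies between bcd and Dfd, and its 888 and 440 reads were most of the 1013 and 473 reads over all rows of the Antennapedia complex. Its 5 homeotic neighbours together held 93 and 20 reads. The noncoding CR44930, which begins just downstream of Ama on the same strand, had 1.865 FPKM and 2.311 FPKM. It was the only other row of either complex with at least 1 FPKM in both libraries. Whether its 15 and 7 reads came from a transcript separate from that of Ama was not tested. CR45593, the next highest by mean among rows that are not homeotic genes, had 0.31 FPKM and 0.823 FPKM from 4 reads in each library. Ama had no called site within 100 bp of its 5' end in either list.

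**Figure D4:**
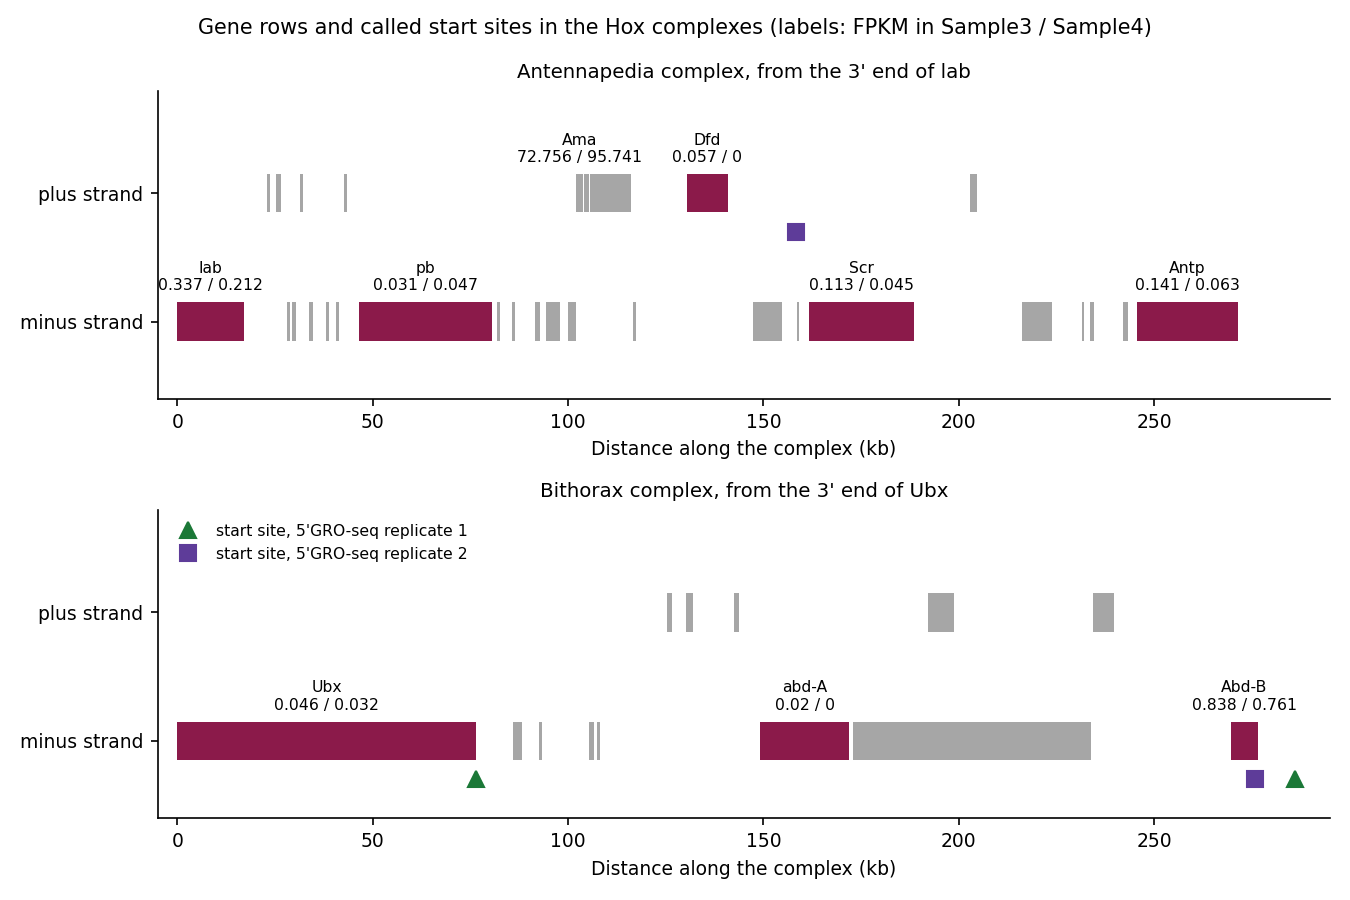
Rows of the GRO-seq table in the Antennapedia and bithorax complexes by strand, against distance along the complex in kb, with homeotic genes in red, other rows in grey and called start sites as triangles (replicate 1) and squares (replicate 2). Numbers give FPKM in Sample3 and Sample4; Ama, with 72.756 and 95.741, is the only labelled gene above 1, and the only site at a homeotic 5' end is that of Ubx.

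Called sites were sparse across both complexes. The Antennapedia complex held 0 sites in replicate 1 and 1 in replicate 2, and the bithorax complex held 1 in each. The replicate 1 site 9.7 kb upstream of the Abd-B row lies beyond the bithorax complex as bounded here and was not counted. Windows of the same lengths laid end to end along 3R had medians of 15 sites in replicate 1, and of 18.5 and 18 sites in replicate 2. In replicate 1, 0 of 102 windows held no site and 2 of 100 held no more than 1. In replicate 2 the windows with no more than 1 site numbered 3 of 102 and 2 of 100. The windows were matched to the complexes in length only, not in the number or level of their genes. The single site of the Antennapedia complex was on the plus strand at 2645612, between Dfd and Scr and inside no homeotic gene.

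At the low-coordinate edges of both complexes, genes of much higher level lay close by. Next to lab, 1.3 kb away, agt, a DNA repair methyltransferase gene, had 13.2 FPKM and 7.01 FPKM, and twr, 2.0 kb away, had 46.035 FPKM and 49.991 FPKM with a replicate 1 site at its 5' end. CG1307, 4.0 kb away, had 28.528 FPKM and 52.613 FPKM. Next to Ubx, 2.4 kb away, the immune protease gene modSP had 1.51 FPKM and 0.628 FPKM. CG14907, 5.7 kb away, had 69.3 FPKM and 33.7 FPKM and a replicate 1 site, and CG14906, 6.9 kb away, had 15.396 FPKM and 12.713 FPKM. On the other side the nearest genes of at least 1 FPKM in both libraries were farther off. Distances there were taken from the single rows of Antp and Abd-B, and longer transcripts of these genes were not considered. The first 3 rows beyond Antp began 105.0 kb or more away: CR44933 and CG1979 were listed at 0, and Sodh-1 had 0.529 FPKM and 0.201 FPKM with a replicate 1 site. Beyond Abd-B, from 40.6 kb, VhaM9.7-d and Actn3 were listed at 0, and Ahcy89E had 2.455 FPKM and 0.652 FPKM with a replicate 2 site. CG1105 lay 131.3 kb beyond the Antp row with 12.1 FPKM and 15.8 FPKM, and CG18622 lay 48.9 kb beyond the Abd-B row with 18.884 FPKM and 11.006 FPKM.

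The Polycomb and trithorax group regulators of the homeotic genes were transcribed throughout. All 18 Polycomb group genes and all 11 trithorax group genes had at least 1 FPKM in both libraries, against 55.0% of protein-coding genes. Polycomb group medians were 13.2 FPKM and 14.1 FPKM. Caf1, a histone-binding subunit of the complex that methylates histone H3, had 41.6 FPKM and 38.0 FPKM. Psc, of the other main Polycomb complex, had 25.4 FPKM and 25.0 FPKM. Pc itself, which binds that methylated histone, was the lowest with 2.023 FPKM and 1.802 FPKM. Trithorax group medians were 15.5 FPKM and 19.4 FPKM. The chromatin remodeller gene kis had 49.2 FPKM and 54.0 FPKM, mor of the Brahma complex 27.8 FPKM and 46.2 FPKM, and ash2 was the lowest by mean with 9.79 FPKM and 13.0 FPKM.

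Cofactors of Hox proteins were mixed. Of 6, exd and tsh had at least 1 FPKM in both libraries, against 55.0% of protein-coding genes. exd, the homeodomain partner that sharpens DNA recognition by Hox proteins, had 12.6 FPKM and 8.48 FPKM, whereas hth, which brings the exd protein into the nucleus, had 0.259 FPKM and 0.197 FPKM. Although low, hth, looked up after its values were seen, had a start site within 100 bp of its 5' end in both lists. tsh, a zinc finger gene of the trunk, had 4.54 FPKM and 4.66 FPKM, and disco-r was the lowest by mean with 0.192 FPKM and 0.146 FPKM.

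Segmentation genes that act upstream of the homeotic genes had medians of 0.372 FPKM and 0.442 FPKM, and 5 of 16 had at least 1 FPKM in both libraries, against 55.0% of protein-coding genes. The pair-rule gene h had 106 FPKM and 132 FPKM and odd had 15.8 FPKM and 6.06 FPKM, whereas tll and ftz were listed at 0. Genes described as Hox targets in embryos had medians of 3.54 FPKM and 1.5 FPKM, and 7 of 10 had at least 1 FPKM in both libraries, against the same 55.0%. The cell death gene rpr, a target of Dfd, had 82.5 FPKM and 59.3 FPKM, and CrebA, a secretory factor of the salivary gland, had 28.0 FPKM and 24.5 FPKM. The forkhead factor gene fkh, a target of Scr, was the lowest with 0.151 FPKM and 0.201 FPKM.

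Most homeobox genes outside the homeotic set were low as well. Of 74 listed, 73 were found by symbol, and 17 of these had at least 1 FPKM in both libraries, against 55.0% of protein-coding genes. Their medians were 0.098 FPKM and 0.093 FPKM, beside 0.085 FPKM and 0.046 FPKM for the homeotic genes. The range was wide: the LIM-homeodomain gene ap had 206 FPKM and 329 FPKM, and the zinc finger homeodomain gene zfh1, which acts in blood cell development, had 202 FPKM and 327 FPKM, whereas 7 were listed at 0 in both libraries, zen2 among them. A start site within 100 bp of the 5' end was called for 13 of the 73 in replicate 1 and 6 in replicate 2, against 28.5% and 17.0% of protein-coding genes. These lists share members with each other: exd, hth, eve, cad, ftz, prd, ct and Dll are also in the homeobox list, and tsh is both a cofactor and a target.

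**Figure D5:**
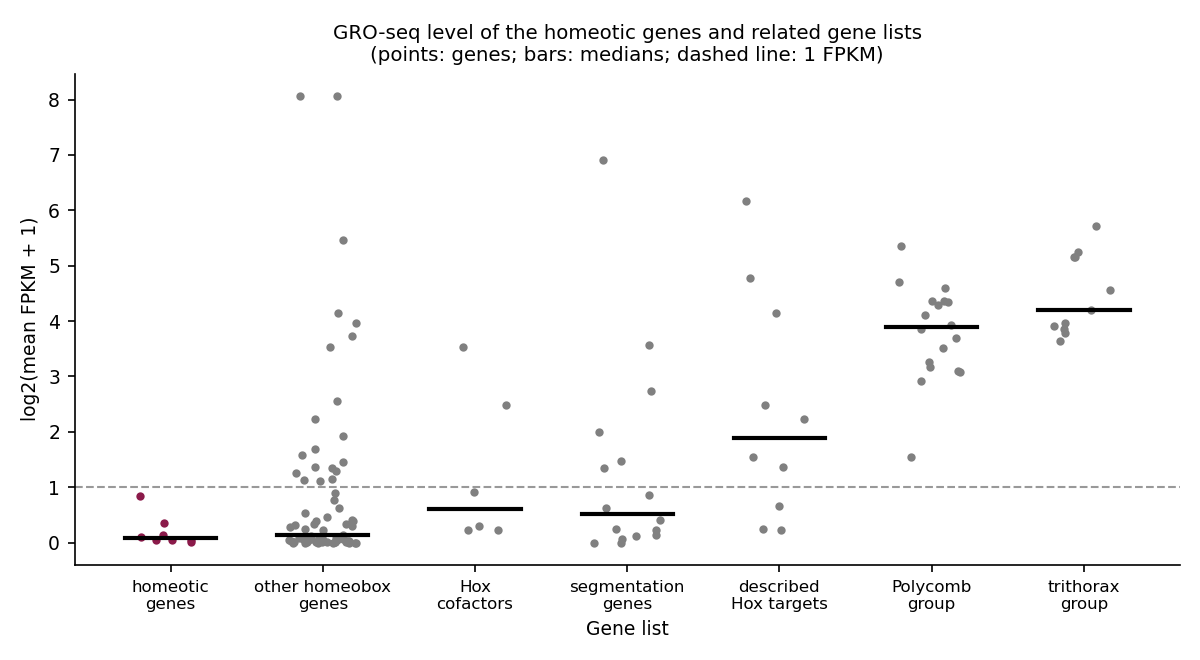
Level of each gene, as log2 of mean FPKM + 1, in the homeotic genes (red) and 6 related gene lists (grey), with bars for list medians and a dashed line at 1 FPKM. All homeotic genes lie below the line, all Polycomb and trithorax group genes lie above it, and the other lists spread across it.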

How the data were processed

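Per the file headers, the authors ran HOMER's findPeaks in tss style on each 5'GRO-seq library, against the GRO-seq library of the same number. The score column of the deposited lists is a constant, so only positions were used. The deposited FPKM values of the GRO-seq libraries cover a single RefSeq transcript of each gene (dm3). HOMER 4.7, Bowtie2 2.1.0 and CASAVA 1.8.2 appear in the submitters' processing notes, without roles or settings. Column names carry no replicate number.

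FPKM multiplied by genomic span gave whole reads for 99.97% of 3433 and 99.95% of 3923 low values (tolerance 0.1 read). These reads served for Poisson intervals and limits only, and no count test was run because there is no contrast. Limits for a count of 0 were set at 3 reads or 3 sites, below the upper end of the 95% exact interval. Recovery and site assignment were tested on simulated data. A site was its interval's centre, and distances were taken to the annotated 5' end. Named genes were all members, the highest and lowest of each list, named neighbours and the 3 rows flanking each complex. Naming genes nearest in level required 1 FPKM, which no member reached. Members and lists were chosen with earlier results of these data known. Planned promoter motifs and homeodomains were not analysed here, since no sequence table was used. Alternatives varied thresholds, distances, pseudocount and libraries. Intervals came from scipy 1.17.1, tables were handled with pandas 2.3.3 and numpy 2.4.6 under Python 3.11.15, and plots were drawn with matplotlib 3.10.9.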

Additional observations from a re-analysis of the deposited data

How the results depend on the processing

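For the counts and the difference of medians, 17 of 26 alternatives stayed within the tolerance (counts within 1.5 times, the difference within 1 SD), 9 moved the value and 0 turned its direction. Only the difference of medians could turn, since a count has no direction. A single library moved the mean level of 4 genes by over 1.5 times: Scr (0.045 to 0.113 FPKM), Antp (0.063 to 0.141 FPKM), Dfd (0 to 0.057 FPKM) and abd-A (0 to 0.02 FPKM). The count of homeotic genes at 1 FPKM stayed 0 with either GRO-seq library alone and at 2 FPKM, and was 1 (Abd-B) at 0.5 FPKM. The difference of medians was -4.39 with a pseudocount of 0.1, -3.70 against genes of at least 1 FPKM and -1.15 against genes of 10 to 130 kb, and -2.11 to -1.79 with a single library. The count of genes with a site at the 5' end rests on replicate 1: it was 0 to 1 with a single list and 0 where both lists were required. It was 2 (Ubx and Abd-B) within 1000 bp, or from 10 kb upstream to 100 bp downstream, both chosen after the data were examined. The count of sense sites inside rests on replicate 2 and was 0 to 1 with a single list. Antisense sites and sites shared between the lists inside the genes stayed at 0 under the alternatives of distance, overlap and list that were run for them. Where a count was 0, a dropped list, a stricter distance or a higher level could only return 0, so those alternatives test nothing. Where a count was 1, dropping the list without the site could not change it. Nor could the distance of 50 bp, since the Ubx site lies at the annotated base. The SD for the difference of medians came from the same libraries, so a single library was almost bound to stay within it. The number within the tolerance was therefore partly fixed in advance. No same-strand row was nested in a homeotic gene, so the planned subtraction of nested reads could not change a level and tests nothing. No paired analysis was possible because the FPKM columns carry no replicate number and no groups were compared. Depth limits the levels: 3 of the 8 genes had under 10 reads in Sample3 and 7 of 8 in Sample4. Why the values moved was not tested beyond the libraries and distances named.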
